A study of Mus musculus with 6 samples.

Results

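Cdkn1a, the gene of the cyclin-dependent kinase inhibitor p21, was studied together with Trp53, which encodes p53, and with 8 further genes known as p53 targets: Mdm2, Ccng1, Phlda3, Trp53inp1, Bax, Bbc3, Sesn1 and Plk2. These 10 genes were taken by symbol from a table of 53465 genes. Each symbol had 1 row, and all 10 genes passed the filter on low values. Expression had been measured by sequencing of poly(A)-selected RNA from right hippocampi of C57BL/6J males, perfused with saline before dissection. A Sham group (3 libraries) was compared with mice after transient middle cerebral artery occlusion (tMCAO, 3 libraries), a model of ischemic stroke with a filament in the right internal carotid for 50 min and then reperfusion. The labels give neither the age of the mice nor the time from reperfusion to dissection, and they do not say whether each library came from a separate animal, so the p-values reflect only variation among these samples, which may be technical.

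p53 is a transcription factor that is held at a low level by the ubiquitin ligase MDM2, itself the product of a p53 target gene. DNA damage, oxidative stress and other insults stabilise it, and it then activates genes that stop the cell cycle, repair damage, limit growth signalling or start apoptosis. p53 has long been studied in neuronal death after ischemia, and several of its targets, Cdkn1a and Plk2 among them, also respond to signals that do not pass through p53.

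The p53 protein binds a pair of copies of a loosely conserved 10-base motif. The promoter sequences of the RefSeq table (GRCm38.p6, 250 bases before to 50 bases after each start site) were searched for this motif because these genes are grouped by their link to p53. Windows were found for 9 of the 10 genes, 13 windows in all, and Trp53inp1 was not matched. At most 1 mismatch to the 20-base tandem of the p53 motif occurred in 29 of 32817 windows (0.0884%), and these included 1 window of Cdkn1a and the window of Ccng1. The windows of the Cdkn1a start sites and of Ccng1 are given here, since Cdkn1a rose most and Ccng1 carried the other close match. Capitals mark exact matches to the 10-base motif and the 20-base match with at most 2 mismatches. The motif equals its own reverse complement, so both strands were covered, and matches may overlap.
Cdkn1a, upstream start, chr17:29090729-29091028, plus strand: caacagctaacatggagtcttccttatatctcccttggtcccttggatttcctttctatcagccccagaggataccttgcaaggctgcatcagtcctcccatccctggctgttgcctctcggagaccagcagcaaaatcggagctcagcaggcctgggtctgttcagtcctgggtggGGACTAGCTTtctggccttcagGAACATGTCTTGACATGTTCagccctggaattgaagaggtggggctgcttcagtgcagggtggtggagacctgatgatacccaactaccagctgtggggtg
Cdkn1a, downstream start, chr17:29093519-29093818, plus strand: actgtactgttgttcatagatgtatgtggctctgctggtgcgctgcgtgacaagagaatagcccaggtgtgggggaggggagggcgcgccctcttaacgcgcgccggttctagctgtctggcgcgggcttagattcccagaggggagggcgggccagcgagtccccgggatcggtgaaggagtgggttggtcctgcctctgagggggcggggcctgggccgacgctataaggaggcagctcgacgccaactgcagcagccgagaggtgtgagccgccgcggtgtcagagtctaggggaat
Ccng1, chr11:40755237-40755536, minus strand: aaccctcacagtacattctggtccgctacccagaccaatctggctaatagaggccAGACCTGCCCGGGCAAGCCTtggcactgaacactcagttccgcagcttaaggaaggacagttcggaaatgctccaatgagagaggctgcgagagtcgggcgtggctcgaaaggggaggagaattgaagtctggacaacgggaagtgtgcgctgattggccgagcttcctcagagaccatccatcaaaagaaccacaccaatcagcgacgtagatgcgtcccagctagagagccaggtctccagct

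In the upstream Cdkn1a window the 20-base match began 51 bases before the start site and a further exact 10-base match 73 bases before it. The downstream Cdkn1a window had 5 mismatches at its best position, and 76.6% of all windows held a match as good or better. In Ccng1 the 20-base match began 195 bases before the start. Exact 10-base matches were present in 6 of the 13 windows, those of Cdkn1a (upstream), Mdm2, Trp53, Ccng1, Bax and the downstream start of Sesn1, against 8.4% of all windows. These matches describe letters in short windows only. The deposited values are per gene, so transcripts from the start sites of Cdkn1a could not be told apart.

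Some differences between libraries followed the groups and others crossed them. Reads assigned to genes, recovered from the FPKM, came to between 39220931 and 46505830 in Sham libraries and between 58214421 and 66479832 in tMCAO libraries. Of 10 hippocampal markers, several were far lower in Sham 2 and tMCAO 3 than in the other libraries, although their sum was 119 to 156 FPKM in Sham and 136 to 146 FPKM in tMCAO. Prox1, a transcription factor of dentate granule cells, was at 2.09 and 1.75 FPKM in Sham 2 and tMCAO 3 and at 5.82 to 6.43 FPKM elsewhere, and Dsp was at 0.0677 and 0.0245 FPKM against 1.37 to 1.62 FPKM. C1ql2 and Fibcd1 showed the same pattern. Wfs1 went the other way, at 38.0 and 61.7 FPKM in Sham 2 and tMCAO 3 and at 29.5 to 31.4 FPKM elsewhere. These 4 genes and Wfs1 were named after their values were seen. Of the 10 hippocampal markers Neurod2 rose and Calb1 and Zbtb20 fell (30.0% called, against 16.2% of all tested genes). None of the 10 passed without Sham 1, 2 or 3. The summed level of 9 striatal markers was 634 FPKM in Sham 2 and 530 FPKM in tMCAO 3, but 76.7 to 154 FPKM in the other libraries. The summed level of 6 choroid plexus markers was lowest in the same libraries, at 25.3 and 9.66 FPKM, against 353 to 730 FPKM in the others. Of 10 neuron markers and 8 oligodendrocyte markers none passed, whereas 1 and 3 fell with library weights. Of 8 microglial markers 6 fell (75.0%, against 7.28% of all tested genes), and 3 fell without Sham 1, 2 or 3. The 8 microglial markers summed to 91.7 to 106 FPKM in Sham and 56.4 to 70.8 FPKM in tMCAO. Markers of infiltrating leukocytes summed to 4.85 to 5.43 FPKM in Sham and 7.84 to 30.0 FPKM in tMCAO, with 8 of 11 below the filter and none listed at 0 in every library. Of 8 astrocyte markers 1 rose, Gfap (2.86-fold), which is 12.5%, against 8.93% of all tested genes. None of the 8 passed without Sham 1, 2 or 3 or without tMCAO 1 or 2. Of 8 endothelial markers Cdh5 rose (2.20-fold) and Tek, Slco1a4 and Kdr fell (50.0% called, against 16.2% of all tested genes). When 1 Sham library was left out, 0 to 1 of them rose and 1 fell. The part of these shifts in the results was not tested beyond the fits with and without Sham 2 and tMCAO 3 and with a striatal covariate, both chosen after seeing the data. In bulk tissue, a change in the number of cells of a type and a change in RNA per cell cannot be told apart.

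After tMCAO, 7 of the 10 genes rose (Cdkn1a, Mdm2, Trp53, Trp53inp1, Bax, Bbc3 and Sesn1), none fell, and Plk2, Phlda3 and Ccng1 did not pass the test. Across all 17561 tested genes, 8.93% rose and 7.28% fell by the same rule, 16.2% in all. The rule was an adjusted p below 0.05 in limma on log2(FPKM + 1), with Benjamini-Hochberg adjustment over all tested genes. The tMCAO libraries all lay above the Sham libraries for 8 of the 10 genes, which held for 23.1% of all tested genes, and they all lay below for none of the 10, against 20.3%. The 10 genes were chosen with earlier results of these data known, so these shares are no independent test. The median log2 fold change of the 10 genes was 0.45, against 0.00 over all tested genes. Cdkn1a stood at 3.16 on this scale, and the other 9 genes lay between -0.03 and 0.75.

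**Figure D1:**
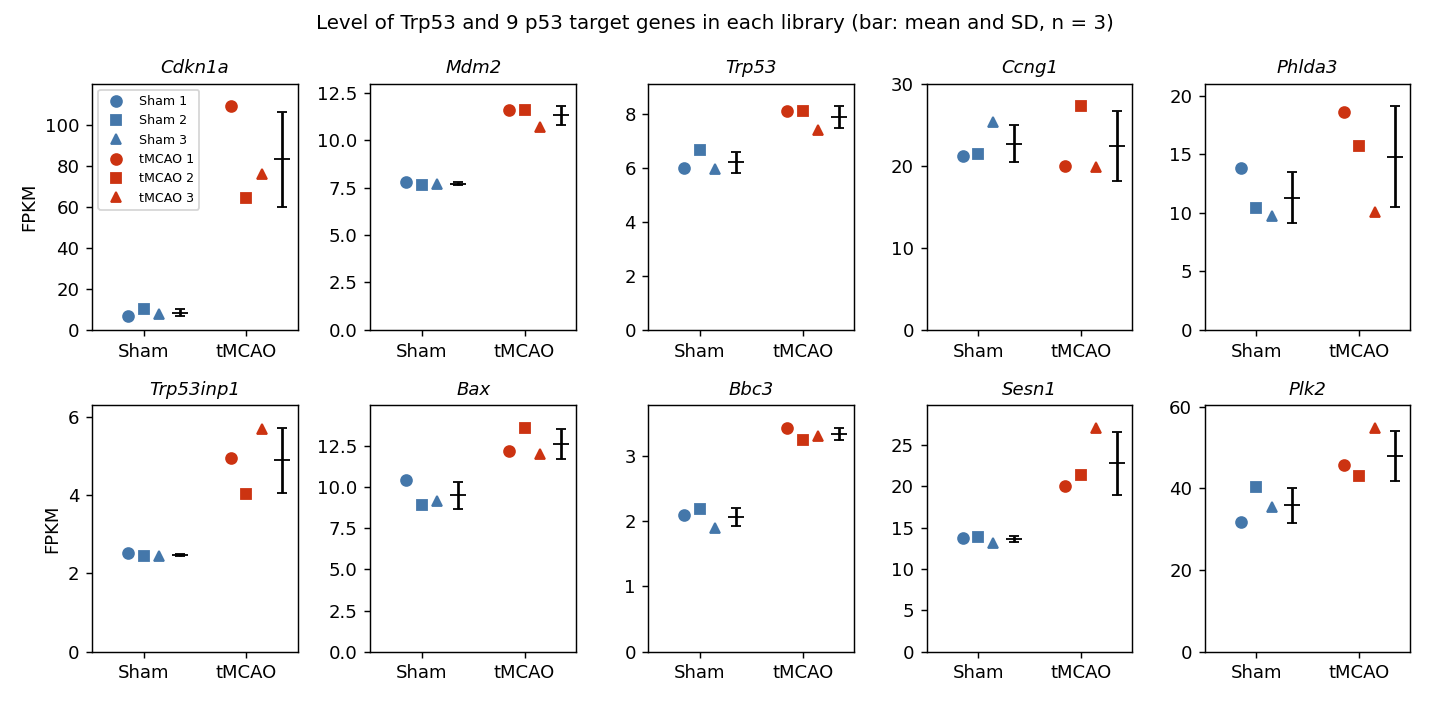
FPKM of Trp53 and 9 p53 target genes in each of 3 Sham and 3 tMCAO libraries (symbols), with mean and SD beside them on axes that start at 0. The groups are separate for 8 genes and overlap for Ccng1 and Phlda3.

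Cdkn1a (ENSMUSG00000023067, chr17:29090976-29100727, plus strand) encodes p21, which binds and inhibits complexes of cyclins with cyclin-dependent kinases and so holds cells in G1. Its level was 6.88, 10.2 and 7.79 FPKM in Sham 1, 2 and 3 and 109, 64.4 and 75.9 FPKM in tMCAO 1, 2 and 3. Every tMCAO library was thus far above every Sham library, with tMCAO 1 highest. The group means were 8.29 ± 1.72 and 83.1 ± 23.2 FPKM (SD, n = 3 each), a 10-fold difference. The log2 fold change was 3.16 (SE 0.21, limma adjusted p = 0.0023), the 4th highest of 17561 tested genes. This rank holds for log2(FPKM + 1), which understates the change of low genes. Over the planned settings that kept all libraries, Timp1, a lower gene, ran from 3.03 to 3.81 and Cdkn1a from 3.05 to 3.3. The Cdkn1a values rested on 2334 reads over the Sham group and 32970 reads over the tMCAO group. Cdkn1a was the only one of the 10 genes called in each of the 6 fits that left out 1 library (limma adjusted p 0.0023 to 0.018). The exact two-sided permutation test gave p = 0.10, the smallest that 3 libraries against 3 allow, and the same p for each of the 8 genes whose groups were separate.

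The worth of 1 read in the deposited FPKM corresponded to an exon length of 2223 bases for Cdkn1a, whereas the union of its exons in GENCODE release M21 is 3553 bases. For the other 9 genes the lengths were equal. The level of Cdkn1a relative to other genes therefore depends on the annotation used, while its ratio between libraries rests on the same length in each. In GENCODE M21, 7.7% of the Cdkn1a exon length is shared with AC167363.2 on the opposite strand, and the sources used here name no strand setting. Trp53cor1, the long noncoding RNA known as lincRNA-p21, is transcribed from the minus strand upstream of Cdkn1a (chr17:29057430-29079179) and is a p53 target in mouse cells. It was at 0.0944, 0.262 and 0.214 FPKM in Sham and 0.171, 0.214 and 0.0799 FPKM in tMCAO, below the filter. The groups overlapped, resting on 72 and 81 reads, and the limma adjusted p was 0.71 when low genes were kept. Its exons share 44.1% of their length with genes on the opposite strand.

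The genes most like Cdkn1a over the 6 libraries were Ctla2a, Timp1 and Adamts1. Likeness was measured as the root mean square difference of log2(FPKM + 1) after each gene's own mean was subtracted, and it was 0.32, 0.40 and 0.42. Ctla2a, which encodes a cysteine protease inhibitor, was at 1.09, 0.563 and 0.993 FPKM in Sham and 24.9, 16.8 and 17.8 FPKM in tMCAO. Like Cdkn1a, these 3 genes were highest in tMCAO 1, which is no separate result because they were chosen by likeness. In contrast to Cdkn1a they were lowest among the Sham libraries in Sham 2.

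Among the regulators of p53 itself, Mdm2 rose and Trp53 rose by less. Mdm2 (ENSMUSG00000020184, chr10:117688875-117710758, minus strand) encodes the ligase that marks p53 for degradation. It was at 7.78, 7.63 and 7.70 FPKM in Sham and 11.6, 11.6 and 10.7 FPKM in tMCAO. The Sham libraries were nearly equal and all tMCAO libraries lay above them (7.70 ± 0.0779 and 11.3 ± 0.493 FPKM, 1.47-fold). On the log2 scale Mdm2 was higher by 0.50 (SE 0.07, limma adjusted p = 0.011), and the call was lost without Sham 1 or Sham 3 (limma adjusted p up to 0.066). The protein-coding genes most like Mdm2 were Smim4, Bmt2 and Zfp24, with root mean square differences of 0.033, 0.036 and 0.037 on the log2 scale.

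Trp53 (ENSMUSG00000059552, chr11:69580359-69591873, plus strand) was at 6.00, 6.64 and 5.96 FPKM in Sham and 8.10, 8.10 and 7.39 FPKM in tMCAO. The groups did not overlap, and their means were 6.20 ± 0.381 and 7.87 ± 0.413 FPKM, a 1.27-fold difference. The log2 fold change of 0.30 (SE 0.08) passed with a limma adjusted p of 0.042. This call was lost in 5 of the 6 fits without 1 library, all but the one without tMCAO 3 (limma adjusted p 0.03 to 0.16), with libraries rescaled to an equal sum (0.077) and with voom on recovered reads (0.058). RNA levels do not show the amount of p53 protein, which is set largely by its stability.

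Ccng1 (ENSMUSG00000020326, chr11:40748552-40755311, minus strand) encodes cyclin G1, a p53 target whose product recruits a phosphatase that acts on MDM2. It was at 21.2, 21.5 and 25.3 FPKM in Sham and 20.0, 27.3 and 19.9 FPKM in tMCAO. The groups overlapped, the means were 22.7 ± 2.26 and 22.4 ± 4.26 FPKM, and the log2 fold change was -0.03 (SE 0.14, limma adjusted p = 0.90). Its sign changed with library weights (0.12) and in 3 of the 6 fits without 1 library. Ccng1 was well covered, with 10124 and 14059 reads over the groups, and was the gene with the 20-base promoter match besides Cdkn1a.

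Of 25 other regulators of p53, 20 were tested, 3 rose and 1 fell. These 4 calls were 20.0% of those tested, near the 16.2% of all tested genes, with a median log2 fold change of 0.06. Rchy1, a further ubiquitin ligase for p53, rose from 6.77 ± 0.561 to 10.5 ± 1.58 FPKM (log2 fold change 0.56, limma adjusted p = 0.025), and 18.0% of its exon length is shared with other genes. Daxx, a transcriptional regulator that binds MDM2, rose from 6.22 ± 0.367 to 7.85 ± 0.418 FPKM (limma adjusted p = 0.044). Ppp1r13b, whose product ASPP1 stimulates p53, rose from 16.0 ± 0.759 to 20.0 ± 1.60 FPKM (limma adjusted p = 0.046). Trp53bp1, which encodes the DNA repair protein 53BP1, fell from 13.1 ± 0.222 to 10.3 ± 0.853 FPKM (limma adjusted p = 0.035), and 15% of its exon length is shared with Tubgcp4 on the opposite strand. With libraries rescaled to an equal sum, 1 regulator rose and 2 fell, and no regulator passed without Sham 1, Sham 2 or Sham 3. Mdm4, the relative of Mdm2 that represses p53 activity, was at 8.46, 8.33 and 8.19 FPKM in Sham and 5.45, 7.81 and 6.97 FPKM in tMCAO. All tMCAO libraries lay below the Sham libraries, but the log2 fold change of -0.28 (SE 0.12) did not pass (limma adjusted p = 0.14).

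The genes of apoptosis rose modestly. Bbc3 (ENSMUSG00000002083, chr7:16308393-16318205, plus strand) encodes PUMA, a BH3-only protein that unleashes BAX at the mitochondrial membrane. It was at 2.09, 2.18 and 1.90 FPKM in Sham and 3.43, 3.25 and 3.31 FPKM in tMCAO. The tMCAO libraries were close to each other and all above Sham (2.06 ± 0.142 and 3.33 ± 0.0917 FPKM, 1.62-fold). This was a log2 difference of 0.50 (SE 0.08, limma adjusted p = 0.015). With a pseudocount of 0.1 it was 0.67, since a pseudocount of 1 understates the change of a gene at this level. The call was lost without Sham 1, 2 or 3 (limma adjusted p up to 0.079).

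Bax (ENSMUSG00000003873, chr7:45461697-45466898, minus strand) encodes the pore-forming protein that opens the outer mitochondrial membrane. It was at 10.4, 8.91 and 9.16 FPKM in Sham and 12.2, 13.6 and 12.0 FPKM in tMCAO. The groups were separate, with means of 9.50 ± 0.812 and 12.6 ± 0.898 FPKM, a 1.33-fold difference. The log2 fold change of 0.37 (SE 0.09) had a limma adjusted p of 0.034. The call was lost in every fit without 1 library except that without tMCAO 3 (limma adjusted p 0.031 to 0.13), with quantile normalization (0.051), with libraries rescaled to an equal sum (0.083) and with voom (0.066). The exons of Bax share 12.2% of their length with Gm45808 on the same strand, so its reads are in part uncertain.

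The relatives of Bax moved the same way. Bok, at 14.9 ± 1.35 FPKM in Sham and 21.6 ± 1.84 FPKM in tMCAO, rose by 0.50 on the log2 scale (SE 0.09, limma adjusted p = 0.021), a call lost without Sham 1, 2 or 3 (0.057 to 0.082). Bak1, the other main pore-forming protein of the family, was higher by 0.38 (SE 0.10, limma adjusted p = 0.049), from 6.18 ± 0.184 to 8.38 ± 1.16 FPKM. The Bak1 call was lost in 7 of the 10 planned settings that kept all libraries and in 5 of the 6 that did not (limma adjusted p 0.0084 to 0.16), and 25.5% of its exon length is shared with other genes.

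Phlda3 (ENSMUSG00000041801, chr1:135766119-135769136, plus strand) encodes a small protein with a pleckstrin homology domain that competes with AKT for membrane lipids and so weakens survival signalling. It was at 13.8, 10.4 and 9.77 FPKM in Sham and 18.6, 15.7 and 10.1 FPKM in tMCAO. tMCAO 1 and 2 lay above all Sham libraries, whereas tMCAO 3 lay among them. The means of 11.3 ± 2.19 and 14.8 ± 4.32 FPKM differed by 0.33 on the log2 scale, with an SE of 0.22 (limma adjusted p = 0.32, exact permutation p = 0.30). Without tMCAO 3 the log2 fold change was 0.57 with a limma adjusted p of 0.047. Over the fits without 1 library this adjusted p ran from 0.047 to 0.65. Without both Sham 2 and tMCAO 3 it was 0.10, with a log2 fold change of 0.52.

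The genes of the stress response showed the next largest rises after Cdkn1a. Trp53inp1 (ENSMUSG00000028211, chr4:11156431-11174379, plus strand) encodes a stress-induced protein that promotes p53 activity and takes part in autophagy. It was at 2.51, 2.45 and 2.45 FPKM in Sham and 4.94, 4.03 and 5.69 FPKM in tMCAO. The Sham libraries were nearly equal and every tMCAO library was higher (2.47 ± 0.0354 and 4.89 ± 0.831 FPKM, 1.98-fold). The log2 difference was 0.75 (SE 0.11, limma adjusted p = 0.014), and 0.94 with a pseudocount of 0.1. The call was lost without Sham 1, 2 or 3 (limma adjusted p up to 0.072).

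Sesn1 (ENSMUSG00000038332, chr10:41809935-41908424, plus strand) encodes sestrin 1, an inhibitor of mTORC1 signalling that lowers oxidative stress. It was at 13.8, 13.9 and 13.2 FPKM in Sham and 20.0, 21.4 and 27.1 FPKM in tMCAO. The groups were far apart and tMCAO 3 was highest (13.6 ± 0.359 and 22.8 ± 3.79 FPKM, 1.68-fold). A log2 difference of 0.69 (SE 0.11) passed with a limma adjusted p of 0.016, but not without Sham 1, 2 or 3 (limma adjusted p up to 0.079). Its paralog Sesn2, at 5.15 ± 0.408 FPKM in Sham and 10 ± 2.64 FPKM in tMCAO, rose by 0.82 on the log2 scale (SE 0.17, limma adjusted p = 0.026), a call lost in 4 of the 6 fits without 1 library (0.0078 to 0.10), with 12.8, 9.86 and 7.49 FPKM in tMCAO 1, 2 and 3. In Sesn1 tMCAO 3 was the highest of the tMCAO libraries and in Sesn2 the lowest. Sesn3 was at 12.6 ± 2.03 and 11.7 ± 1.74 FPKM and did not pass (limma adjusted p = 0.68).

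Plk2 (ENSMUSG00000021701, chr13:110395046-110400844, plus strand) encodes polo-like kinase 2, which neurons induce with activity and which takes part in the weakening of synapses. It was at 31.7, 40.3 and 35.3 FPKM in Sham and 45.7, 43.1 and 54.8 FPKM in tMCAO. The groups did not overlap, but the gap between Sham 2 and tMCAO 2 was small. The means of 35.8 ± 4.29 and 47.9 ± 6.17 FPKM, 1.34-fold apart, differed by 0.41 on the log2 scale, with an SE of 0.12 (limma adjusted p = 0.060). Within each group Plk2 was highest in the library with high striatal markers, Sham 2 and tMCAO 3. With the striatal markers as a covariate the log2 fold change was 0.49 (SE 0.07, limma adjusted p = 0.0091), and without both libraries it was 0.40 (limma adjusted p = 0.042). Library weights (0.035) and voom (0.048) also brought it past the threshold, while the fits without 1 library did not (0.069 to 0.18).

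The genes most like Plk2 were Klhl2, Vcpkmt and Mkl1, with root mean square differences of 0.038, 0.046 and 0.046 on the log2 scale. They too were highest in Sham 2 and tMCAO 3 within the groups. Because they were chosen by likeness over the same libraries, this is no separate result. Of 16 other activity-regulated genes, all tested, 1 rose (6.25%, against 8.93% of all tested genes) and none fell, with a median log2 fold change of -0.18. The gene that rose was Dusp1, a MAP kinase phosphatase, from 10.2 ± 1.63 to 16.4 ± 1.70 FPKM (limma adjusted p = 0.023). The Dusp1 call was lost in 4 of the 6 fits without 1 library (limma adjusted p up to 0.081), and 4 of these genes rose without tMCAO 3. With library weights and voom 2 of them fell, and 3 with an equal sum and with the striatal covariate.

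**Figure D2:**
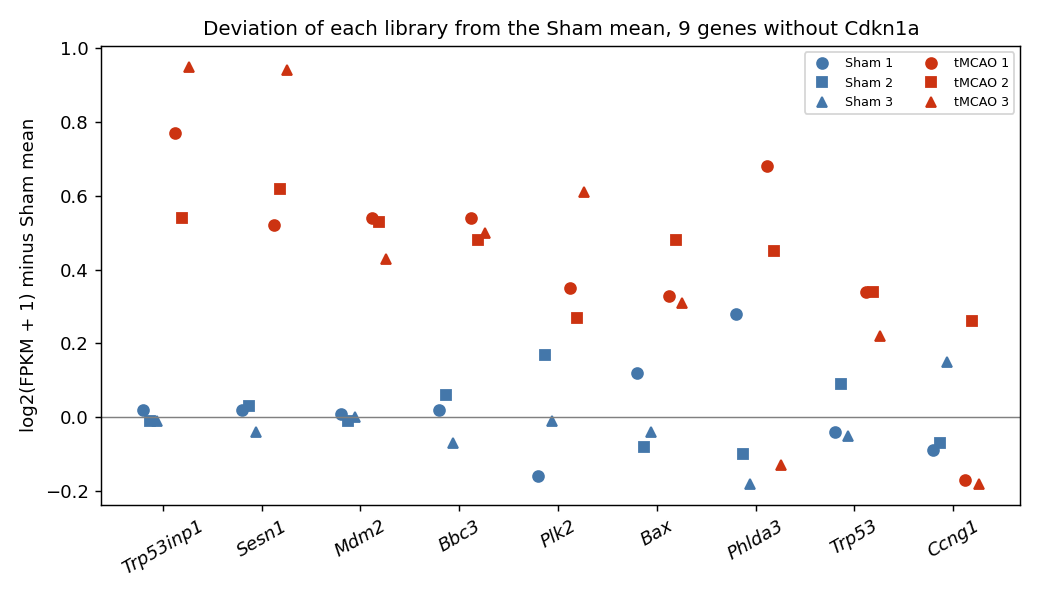
Log2(FPKM + 1) of each library minus the mean of the 3 Sham libraries, for the 9 genes other than Cdkn1a in order of their fold change. tMCAO 3 (red triangles) is the highest tMCAO library for Trp53inp1, Sesn1 and Plk2 and lies within the Sham libraries for Phlda3.

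The 10 genes did not share 1 order over the tMCAO libraries. tMCAO 1 was highest for Cdkn1a, Mdm2, Phlda3 and Bbc3, tMCAO 2 for Trp53, Ccng1 and Bax, and tMCAO 3 for Trp53inp1, Sesn1 and Plk2. Some of these ranks are not resolved. In tMCAO 1 and 2 Mdm2 was at 11.6 and 11.6 FPKM and Trp53 at 8.10 and 8.10 FPKM, and Bbc3 was at 3.25 to 3.43 FPKM over the tMCAO libraries. tMCAO 3 was also the lowest tMCAO library for 5 genes (Mdm2, Trp53, Ccng1, Phlda3 and Bax). In log2(FPKM + 1) relative to the Sham mean, tMCAO 3 lay 0.95 higher for Trp53inp1 and 0.94 higher for Sesn1, but at -0.13 for Phlda3 and -0.18 for Ccng1. For Cdkn1a the values were 3.58, 2.83 and 3.07 in tMCAO 1, 2 and 3, all larger than those of the other 9 genes.

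The order of the levels differed between the groups. Levels are given per length as FPKM, and the place of Cdkn1a depends on its length. In Sham, Plk2 was highest (35.8 FPKM), followed by Ccng1 (22.7 FPKM), and Cdkn1a was the 6th of 10. From Sesn1 through Phlda3, Bax and Cdkn1a to Mdm2, each range overlapped with that of the following gene, so these neighbours did not differ beyond their spread. In tMCAO, Cdkn1a as deposited was the highest of the 10 in every library, and Plk2 was next. With the same reads over the 3553 bases of the union exons, Cdkn1a would be at 68.2, 40.3 and 47.5 FPKM in tMCAO 1, 2 and 3, below Plk2 in tMCAO 2 and 3. Its Sham mean would then be 5.19 FPKM, the 8th of 10 and below Trp53. The remaining 8 genes kept the same order by mean apart from Sesn1 and Ccng1, which exchanged places with overlapping ranges. Bbc3 was lowest in both groups.

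Cdkn1a differed from the other CDK inhibitors in size of change. Of 7 relatives that inhibit cyclin-dependent kinases or are named with them, 4 were tested and 1 rose (25.0%, against 8.93% of all tested genes). Cdkn2d, the gene of p19INK4d, was at 16.0 ± 1.35 FPKM in Sham and 22.8 ± 2.23 FPKM in tMCAO and rose by 0.48 on the log2 scale (SE 0.10, limma adjusted p = 0.024), but not in 4 of the 6 fits without 1 library (limma adjusted p 0.03 to 0.099). Cdkn1b, which encodes p27, was at 10.5, 10.1 and 10.7 FPKM in Sham and 10.7, 10.6 and 10.6 FPKM in tMCAO. Its groups overlapped and the log2 fold change was 0.03 (SE 0.06, limma adjusted p = 0.77). In Sham the level of Cdkn1b was thus above that of Cdkn1a by mean, and in tMCAO below it in every library.

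**Figure D3:**
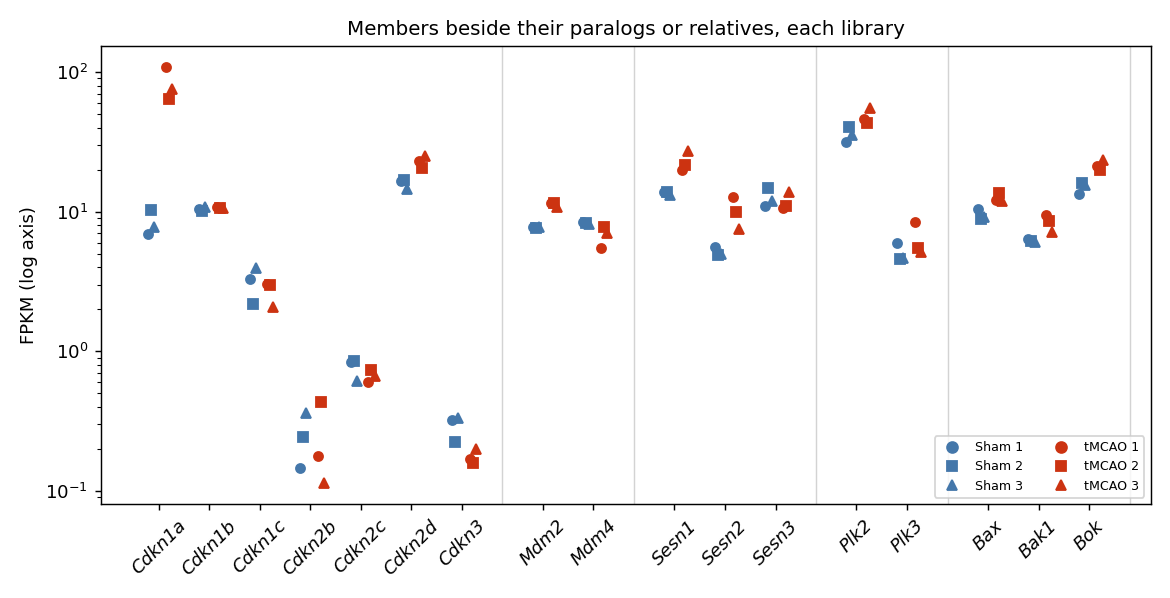
FPKM (log axis) in each of 3 Sham and 3 tMCAO libraries for members and their relatives: CDK inhibitors and Cdkn3, Mdm2 and Mdm4, sestrins, polo-like kinases, and pore-forming members of the Bcl2 family. The rise of Cdkn1a stands beside a level of Cdkn1b near 10.4 and 10.6 FPKM in Sham and tMCAO.

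Of 28 cyclin, CDK and replication genes, 20 were tested, 3 rose (15%, against 8.93% of all tested genes) and none fell. The median log2 fold change was 0.15, against 0.00 over all tested genes. Pcna, the sliding clamp of DNA polymerase and itself a partner of p21, rose from 12.1 ± 0.501 to 15.7 ± 0.611 FPKM (log2 fold change 0.35, limma adjusted p = 0.022). Mcm7, a subunit of the replicative helicase, rose from 3.60 ± 0.198 to 5.29 ± 0.736 FPKM (limma adjusted p = 0.035) and Ccna2, cyclin A2, from 1.72 ± 0.195 to 2.56 ± 0.235 FPKM (limma adjusted p = 0.038). None of the list passed without Sham 1, 2 or 3, and the calls of Mcm7 and Ccna2 were lost in 5 of the 6 fits without 1 library (limma adjusted p up to 0.13). Mcm7 and Ccna2 share 12.6% and 12.5% of their exon length with other genes.

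Of 50 other genes described as p53 targets, 42 were tested, 11 rose (26.2%, against 8.93% of all tested genes), 2 fell and 29 did not pass, with a median log2 fold change of 0.18. The list was chosen with earlier results of these data known, so these shares are no independent test. Ddit4, which inhibits mTORC1 and responds to several kinds of stress, was at 11.6, 11.3 and 11.3 FPKM in Sham and 43.3, 33.0 and 33.4 FPKM in tMCAO. Its log2 fold change was 1.59 (SE 0.11, limma adjusted p = 0.0026), and the call held in each fit without 1 library. Pmaip1, the gene of the BH3-only protein NOXA, rose from 0.742 ± 0.145 to 2.77 ± 0.567 FPKM (log2 fold change 1.11, limma adjusted p = 0.0099). Sertad1, a regulator of CDK4 and E2F, rose from 4.16 ± 0.917 to 10.5 ± 1.31 FPKM (log2 fold change 1.16), Slc19a2, a thiamine transporter, from 4.33 ± 0.281 to 7.43 ± 0.582 FPKM (0.66) and Epha2, an ephrin receptor, from 0.366 ± 0.0281 to 1.24 ± 0.179 FPKM (0.71), each with a limma adjusted p of 0.010. A pseudocount of 1 understates the change of the low genes among these. By mean FPKM, Pmaip1 rose 3.74-fold and Epha2 3.38-fold, against 3.20-fold for Ddit4. The calls of Pmaip1, Sertad1, Slc19a2 and Epha2 were each lost in 2 of the 6 fits without 1 library (limma adjusted p up to 0.055). The genes that fell were Abcb1a, the P-glycoprotein transporter of the blood-brain barrier, from 6.16 ± 0.325 to 2.46 ± 0.617 FPKM (limma adjusted p = 0.011), and Pltp, a phospholipid transfer protein, from 17.7 ± 1.91 to 8.02 ± 2.75 FPKM (limma adjusted p = 0.023). Neither passed without Sham 1 or Sham 3. Over the 6 fits without 1 library, Abcb1a lost its call in 2 (limma adjusted p up to 0.055) and Pltp in 4 (up to 0.084). Of the 8 endothelial markers Tek, Slco1a4 and Kdr also fell, whereas Cdh5 rose and 4 did not pass. The part of these markers in the result was not tested. The exons of Abcb1a and Pltp share 10.1% and 19.3% of their length with other genes. When single Sham libraries (1, 2, 3) were left out, 1, 5 and 1 of these genes rose, and 8, 9 and 13 when single tMCAO libraries were. Of the 10 planned settings with all libraries, the counts ran from 8 higher at a mean FPKM of at least 2, where 37 genes were tested, to 16 higher with library weights.

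**Figure D4:**
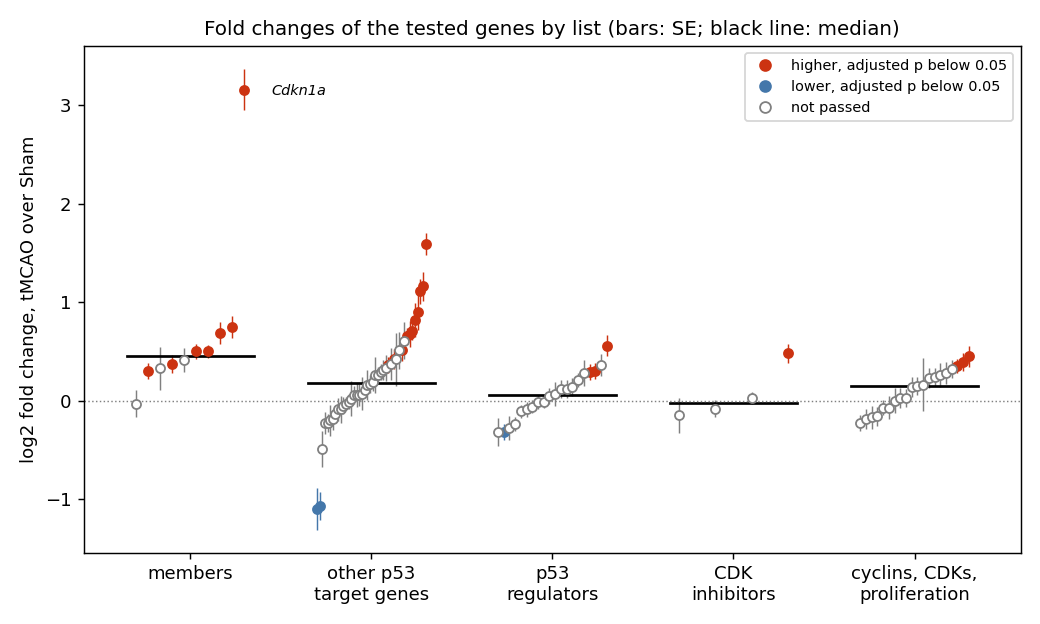
Log2 fold change (tMCAO over Sham, with SE) of each tested gene in 5 lists, filled where the limma adjusted p was below 0.05, and the median of each list as a black line. Cdkn1a at 3.16 lies above all other genes shown, and the medians are 0.45, 0.18, 0.06, -0.02 and 0.15 from left to right.

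In the authors' deposited table, whose sign is Sham over tMCAO, 8 of the 10 genes were higher in tMCAO with an adjusted p below 0.05, against 10.8% of the 22647 genes in that table. Plk2 was among them in the authors' deposited table (log2 fold change -0.42, adjusted p = 0.023), and Ccng1 (0.02, adjusted p = 0.95) and Phlda3 (-0.39, adjusted p = 0.24) were not. The value for Cdkn1a in the authors' deposited table was -3.33 (adjusted p = 1.9e-50). Which test the authors' deposited table rests on is not stated.

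The number of the 10 genes called depended on the libraries in the fit. Leaving out single Sham libraries (1, 2, 3) gave 1, 2 and 1, where 124, 419 and 75 of all tested genes passed. Leaving out single tMCAO libraries gave 5, 5 and 8, where 1523, 2183 and 3896 passed, and in the last of these fits 12.4% of all tested genes were called as higher. An unadjusted limma p below 0.05 was found for 8 of the 10 genes in the fit with all libraries, against 36.0% of all tested genes. The count was also 8 in these 6 fits, apart from 9 without tMCAO 3, against 25.0% to 40.5% of all tested genes. The fit with the striatal covariate called 8 of the 10, with 11.8% of all tested genes called as higher, and the fit without both Sham 2 and tMCAO 3 called 7, with 6.99%. Library weights called 8 (15.3%), voom 6 (7.11%) and rescaling to an equal sum 5 (5.97%).

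**Figure D5:**
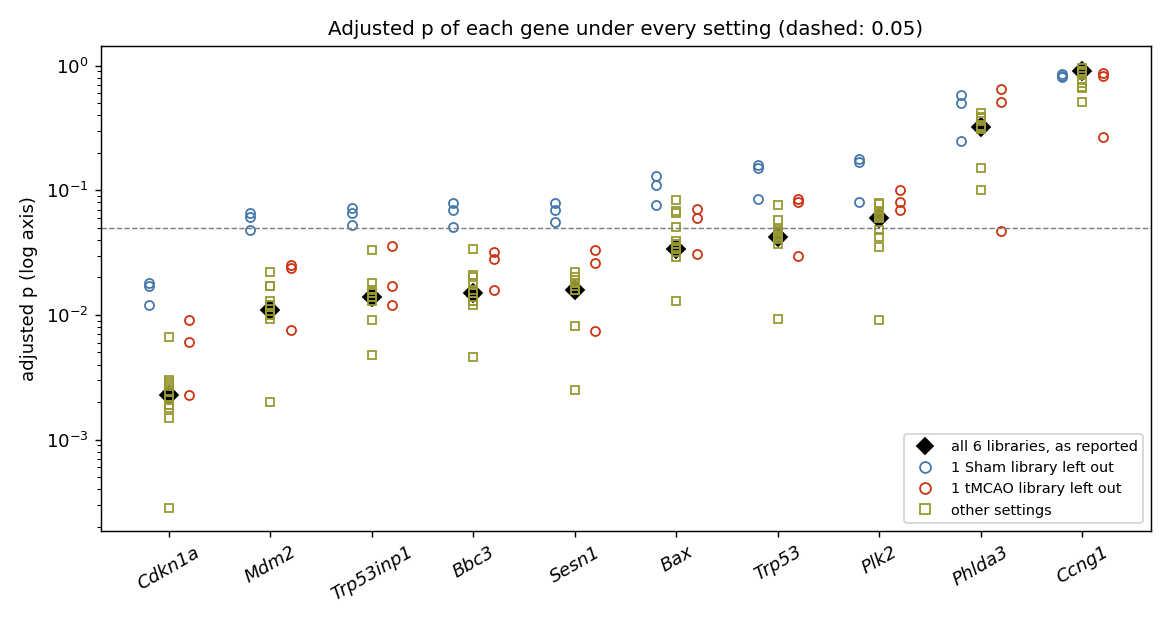
Limma adjusted p (log axis) of each of the 10 genes with all 6 libraries (black diamonds), without 1 Sham library (blue), without 1 tMCAO library (red) and under the other settings (squares), with the threshold of 0.05 as a dashed line. Every point of Cdkn1a lies below the line, and leaving out a Sham library moves Trp53inp1, Bbc3 and Sesn1 above it.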

How the data were processed

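RNA was sequenced from 3 Sham and 3 tMCAO libraries of right hippocampus. The authors deposited FPKM for 53465 genes. Their comparison lists 22647 of these, with FPKM that differed by at most 1.8e-12. For each gene it adds the authors' log2 fold change, p-value and adjusted p. Per the submitters' processing notes, mm10 was used. Aligner, counter, annotation and strandedness were not given in the sources used here. Titles identified the Sham columns, whereas columns of tMCAO carry only the group, so tMCAO 1 to 3 are column numbers.

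Depth was recovered from the FPKM. In all 36452 genes above 0, and so in 100% of the 30195 above 0 in at least 3 libraries, the FPKM corresponded to whole numbers of reads within 1e-06 reads. The union exon length of GENCODE M21 gave whole reads in 34263 genes. A recovered unit may be a single read or a pair. FPKM factors need not follow assigned reads, and all levels are limited by counting error and by 3 libraries per group.

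limma 3.58.1 in R 4.3.3 was fitted with lmFit and eBayes (trend) to log2(FPKM + 1) over the 17561 genes of the comparison table with a mean FPKM of at least 0.5, two-sided, with Benjamini-Hochberg adjustment and a threshold of 0.05. Fold changes on this scale understate the change of low genes. An exact two-sided permutation test (20 assignments, smallest p 0.10) was run per gene. The procedure was tested on simulated data. The genes and lists were chosen with earlier results of these data known. Genes named outside the 10 are, per list and direction, up to 5 called genes with the smallest adjusted p. Trp53cor1, Mdm4, Cdkn1b, Sesn2, Sesn3 and the 3 protein-coding genes most like each of Cdkn1a, Mdm2 and Plk2 were added. The hippocampal markers Prox1, Dsp, C1ql2, Fibcd1 and Wfs1 were named after their values were seen. Markers were summed per list. Alternatives were no filter, a pseudocount of 0.1, a filter at a mean FPKM of 2, rescaling to an equal sum, median of ratios, quantile normalization, eBayes without trend, library weights, the table of all genes, voom on recovered reads and fits without 1 library. A further 2 were chosen after seeing the data: leaving out Sham 2 and tMCAO 3 together, and a striatal covariate. The symbol Cop1 is Rfwd2 in the files and was matched through RefSeq synonyms. Promoters are those of RefSeq (GRCm38.p6).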

Additional observations from a re-analysis of the deposited data

How the results depend on the processing

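No paired analysis was possible because the samples carry 6 different numbers in their titles, and nothing in the labels ties the numbers of the tMCAO columns to those of the Sham columns. Of the 10 genes, 7 were called with all libraries and 5 to 8 under the settings that kept all libraries: 5 with libraries rescaled to an equal sum, 6 with quantile normalization and with voom, and 8 with library weights. The count ran from 1 to 8 when 1 library was left out and was 7 without Sham 2 and tMCAO 3 together, where Plk2 passed and Bax did not. Genes changed in all numbered 2847, 4913 with library weights, and 75 to 3896 without 1 library. The other p53 targets changed numbered 13, and 1 to 16 without 1 library. Signs changed only for genes that were not called: Ccng1 with library weights (0.12), without Sham 2 and tMCAO 3 together (0.01) and over the fits without 1 library (-0.17 to 0.05), Cdkn1b with quantile normalization (-0.007) and an equal sum (-0.04), and Sesn3 with the striatal covariate (0.009) and over the fits without 1 library (-0.20 to 0.03). The causes were not tested, except that fits without a library hold fewer samples. Rescaling to an equal sum moved the median of all tested genes to -0.057. With 3 libraries per group, a p that misses the threshold does not show that a level was the same.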
